A study of Homo sapiens with 12 samples.

Results

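Small nucleolar RNAs (snoRNAs) counted in ribosome-bound RNA of human pluripotent and neural cells were examined: 41 of the 428 SNORA and SNORD symbols in a table of 59050 gene symbols. A symbol was taken when its name began with SNORA or SNORD and a number, and when it reached a mean of at least 10 CPM (the count per 1000000 counts of the library) over the 3 ribosome-bound libraries of either cell state. Of the 41, 23 were SNORA and 18 were SNORD. The members were chosen by their ribosome-bound values, so those values are described below without a test, whereas their levels in total RNA had no part in that choice and could be tested. The study compared neural progenitor cells (NPC) with HUES8 cells (ESC), a line of human embryonic stem cells, all labelled wild type. The NPC had spent 7 days in neural induction medium with LDN193189 (0.05 uM, an inhibitor of BMP receptors) and with SB431542 (2.5 uM, an inhibitor of TGF-beta family receptors), the second of which was left out for the last 2 days. The ESC were grown in mTeSR1, a stem cell medium, for which the labels name no inhibitor. Each state was measured by sequencing of ribosome-bound RNA (groups RIBO_NPC and RIBO_ESC) and of total RNA depleted of rRNA (RNA_NPC and RNA_ESC), with 3 libraries per group and 12 in all. The labels do not say whether replicates were separate cultures, so p-values measure the spread between these libraries, which may be technical. The way ribosome-bound RNA was isolated is not stated in the sources used here.

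SnoRNAs are short noncoding RNAs of the nucleolus, most of them trimmed from the introns of host genes. C/D box snoRNAs (SNORD) carry the proteins FBL, NOP56, NOP58 and SNU13 and guide 2'-O-methylation of rRNA, whereas H/ACA box snoRNAs (SNORA) carry DKC1, NHP2, NOP10 and GAR1 and guide the conversion of uridine to pseudouridine. A few of them, among them U3, U14 and U17, are needed for cleavage of the rRNA precursor and not, or not only, for its modification.

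By the spans of the RefSeq annotation (GRCh38.p14), 33 of the 41 lay within a protein-coding gene, 7 lay only within a long noncoding RNA gene or a pseudogene, and SNORD3A (U3) lay in no other gene. The annotation used gave spans without exons or strand, so introns and exons are not assigned. Many snoRNA host genes are known to begin transcription in a run of pyrimidines, and the starts of 5 of the hosts of members described below are shown for that reason. The windows run from 20 bases before to 30 bases after the RefSeq start, 5′ to 3′ on the gene's strand, and capitals mark CTTTC. NCL holds SNORD20 and SNORA75, IPO7 holds SNORA23, RPS12 holds SNORD100 and SNORA33, SNX5 holds SNORD17, and SNHG32 holds SNORD48.
NCL (chr2:231464455-231464504, - strand): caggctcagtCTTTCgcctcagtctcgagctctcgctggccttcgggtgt
IPO7 (chr11:9384632-9384681, + strand): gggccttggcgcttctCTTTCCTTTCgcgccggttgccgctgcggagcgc
RPS12 (chr6:132814549-132814598, + strand): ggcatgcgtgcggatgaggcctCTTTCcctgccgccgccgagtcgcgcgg
SNX5 (chr20:17968765-17968814, - strand): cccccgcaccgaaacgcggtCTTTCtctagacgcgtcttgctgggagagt
SNHG32 (chr6:31834896-31834945, + strand): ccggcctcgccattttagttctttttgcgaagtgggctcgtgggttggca
Of the 38 enclosing genes counted in the table, 33 had a start sequence, with 41 windows between them. CTTTC was found on the gene's strand in 12 of these windows (29.3%), against 6.46% of the 34943 windows of all genes, and on the other strand in 0, against 5.83%. Among the 5 shown, the 4 with the motif differ in where it falls relative to the annotated start, and the SNHG32 window has pyrimidine runs without the exact letters. The 5 hold the motif more often than the rest. Of hosts not shown, GNL3, RPL27A, CWF19L1, EIF4G1, TCP1, RCC1, SNHG3 and SNHG26 lacked it in every window. RPL12, CCNB1IP1 and ZFAS1, also not shown, had it. A match is a description of these letters only.

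Total counts ranged from 2422756 to 4451196 in ribosome-bound libraries and from 19529738 to 35117370 in RNA libraries. A count of 0 in a library allows up to 3 counts, which was 0.674 to 1.24 CPM in ribosome-bound RNA and 0.0854 to 0.154 CPM in RNA. These limits and the intervals below cover counting error alone, as reads are not known to be separate molecules. The cell states matched their labels: the summed level of POU5F1, NANOG, TDGF1 and GDF3 was 25.3 to 26.8 CPM in RNA_NPC and 1832 to 2312 CPM in RNA_ESC, and that of PAX6, SOX1, OTX2 and LHX2 was 180 to 189 CPM in RNA_NPC and 11.2 to 13.1 CPM in RNA_ESC. Other lineages differed too. In ribosome-bound RNA, 4 mesoderm and endoderm markers summed to 1.42 to 3.67 CPM in NPC and 188 to 235 CPM in ESC, most of it MIXL1 (mean of 173 CPM in ESC). In RNA these 4 summed to 0.826 to 0.997 CPM in NPC and 5.84 to 7.77 CPM in ESC. Of them GATA6 had the higher RNA mean in NPC (0.711 CPM, against 0.337 CPM in ESC) and was not called in edgeR. In ribosome-bound RNA, 4 neural crest and placode markers summed to 124 to 145 CPM in NPC and 26.4 to 38.3 CPM in ESC. The crest and placode markers did not move together: TFAP2B averaged 120.3 CPM in NPC and 0.434 CPM in ESC, and FOXD3 6.18 CPM in NPC and 28.2 CPM in ESC. The 4 neuron markers summed to 27.5 to 32.7 CPM in NPC and 73.9 to 148 CPM in ESC, most of it TUBB3 (means of 22.9 CPM in NPC and 104 CPM in ESC). They did not move together either. STMN2 averaged 5.09 CPM in NPC and 8.50 CPM in ESC, DCX 1.64 CPM in each, and ELAVL3 0.835 CPM in NPC and 0.217 CPM in ESC. None of these 12 markers had a mean of 0 in either state. The part of these cells in the snoRNA values was not tested, and in bulk samples fewer cells of a type and less RNA per cell cannot be told apart. A library of each ESC group stood apart. RIBO_ESC replicate 2 differed from replicates 1 and 3 by 34.1 and 26.4 times the counting variance (chi-square per degree of freedom over genes), against 4.12 between those replicates. RNA_ESC replicate 3 differed by 58.5 and 81.9 times from its replicates, which differed by 5.13. RIBO_ESC replicate 2 was also the lowest of its group for 34 of the 41 snoRNAs, so ribosome-bound ratios are given with and without it.

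Together the 41 snoRNAs took a larger part of the counts in NPC than in ESC ribosome-bound libraries, and a far smaller part of the counts in total RNA. Their share of ribosome-bound counts was 1.21%, 1.66% and 1.23% in NPC and 0.964%, 0.427% and 0.841% in ESC. Every NPC library lay above every ESC library. The lowest, RIBO_ESC replicate 2, had a 95% Wilson interval of 0.419% to 0.435%, and the highest, RIBO_NPC replicate 2, one of 1.64% to 1.67%, so counting error was small beside the spread of replicates. The means were 1.37% ± 0.250 in NPC and 0.744% ± 0.281 in ESC (SD, n = 3 each), a ratio of 1.84, or 1.52 without RIBO_ESC replicate 2. In RNA the same snoRNAs took 0.0144% ± 0.000341 of counts in NPC and 0.0174% ± 0.00127 in ESC (SD, n = 3 each), and every NPC library lay below every ESC library. Without SNORD3A the SNORD share averaged 0.00320% in NPC and 0.00315% in ESC. The next highest SNORD in RNA was SNORD17, which ran the other way, with means of 23.0 CPM in NPC and 15.5 CPM in ESC. Of the 11 SNORDs tested in RNA, 9 had a log2 change below 0. Over all SNORD symbols the share in RNA was 0.0141% in NPC and 0.0202% in ESC, so the lower share did not rest on SNORD3A alone.

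**Figure D1:**
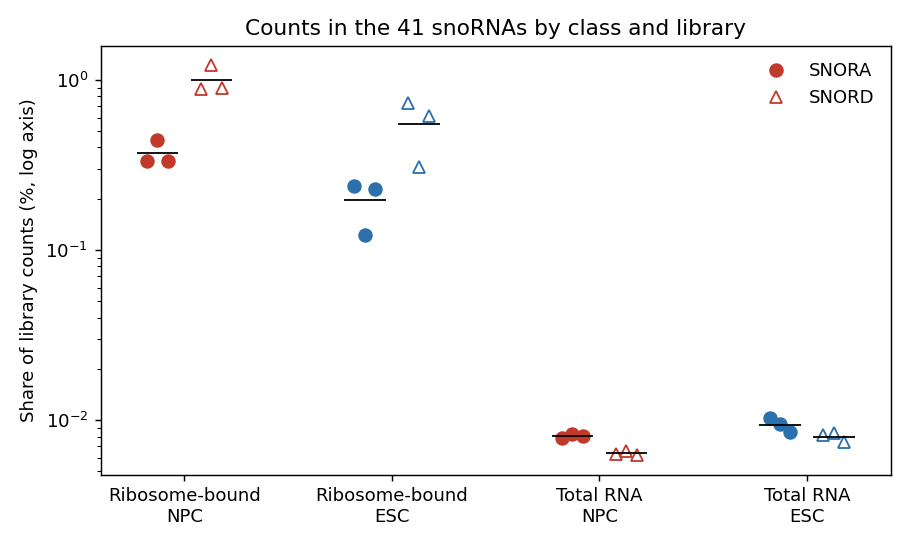
Summed counts of the 23 SNORA and 18 SNORD snoRNAs as a percentage of each library's total, on a log axis, with a point per library and the group means marked, for ribosome-bound RNA and RNA of NPC and ESC. In ribosome-bound RNA both classes lie higher in NPC (SNORD 0.998%, SNORA 0.370%) than in ESC (0.548% and 0.196%), and in RNA the SNORA share of the members is the larger. That order turns without SNORA73B alone, but by the group means not without both SNORA73B and SNORD3A.

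Both classes contributed. SNORD snoRNAs held 0.879%, 1.21% and 0.900% of ribosome-bound counts in NPC and 0.727%, 0.306% and 0.612% in ESC. SNORA snoRNAs held 0.334%, 0.441% and 0.334% in NPC and 0.236%, 0.122% and 0.229% in ESC. In neither class did the states overlap. The balance of the classes hardly moved between states: SNORD counts were 2.69 ± 0.0598 times the SNORA counts in RIBO_NPC and 2.75 ± 0.292 times in RIBO_ESC (SD, n = 3 each). In RNA, SNORD counts of the members were 0.791 ± 0.0149 of the SNORA counts in NPC and 0.852 ± 0.0476 in ESC (SD, n = 3 each). SNORA73B held 58.5% of the members' SNORA counts in RNA_NPC and 60.6% in RNA_ESC, and without it alone the ratio was 1.90 ± 0.0783 in NPC and 2.18 ± 0.249 in ESC. Without both SNORA73B and SNORD3A, the member of each class highest in RNA, the ratio was 0.955 ± 0.0448 in NPC and 0.856 ± 0.0190 in ESC (SD, n = 3 each). SNORA was then again the larger class by the mean. Over all SNORA and SNORD symbols it was 1.27 ± 0.0159 in NPC and 1.67 ± 0.0711 in ESC (SD, n = 3 each). The annotated lengths differ, with medians of 136 nt for SNORA and 80 nt for SNORD members, and a read that overlaps both a snoRNA and its host gene cannot be assigned here, since neither the counting rule nor the use of strand is stated in the sources used here. The 41 held 98.8% of all snoRNA counts in ribosome-bound RNA and 55.6% of those in RNA. Of all 428 symbols, 285 had no count in any ribosome-bound library, and 6 had a mean of at least 10 CPM in RNA of either state.

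A few methylation guides made up much of the ribosome-bound signal. SNORD48 (chr6:31835263-31835326), a guide to large-subunit rRNA that is widely used as a reference in small-RNA assays, had the highest level. It stood at 2785, 4966 and 2926 CPM in NPC, against 1816, 421 and 1622 CPM in ESC. All 3 NPC libraries were above the ESC libraries, among which replicate 2 was lowest. SNORD93 (chr7:22856613-22856686), a guide to small-subunit rRNA, came second and ran the other way. It had 1283, 1391 and 1249 CPM in NPC, against 2691, 1393 and 2064 CPM in ESC. It was the single member whose NPC libraries all lay below its ESC libraries, and the nearest pair, RIBO_NPC replicate 2 and RIBO_ESC replicate 2, were nearly equal. SNORD69, a guide to large-subunit rRNA from the span of GNL3, had 1259, 1139.5 and 1357 CPM in NPC, against 639, 482 and 519.6 CPM in ESC, with no overlap and little spread in either state. These 3 held 47.0% of the members' ribosome-bound counts.

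Next among the C/D box guides, SNORD104, which targets large-subunit rRNA, had 753, 1053 and 873 CPM in NPC, against 568, 215 and 609 CPM in ESC. SNORD20, a guide to small-subunit rRNA from the span of NCL, had 939, 1044 and 561 CPM in NPC, against 181, 96.2 and 214 CPM in ESC. SNORD100, a guide to small-subunit rRNA from the span of RPS12, had 458, 697 and 635 CPM in NPC, against 405, 119 and 336 CPM in ESC. In all 3 the NPC libraries lay above the ESC libraries, SNORD20 by the widest margin. Per kilobase of annotated length, these 6 SNORDs held the 6 highest ribosome-bound levels of the 41, and SNORD48 averaged 55611 CPM per kb in NPC and 20104 CPM per kb in ESC. The other 12 SNORDs were SNORD6, SNORD88A, SNORD126, SNORD66, SNORD3A, SNORD14E, SNORD12C, SNORD59A, SNORD17, SNORD99, SNORD105 and SNORD92, whose RIBO_NPC means ran from 12.2 CPM (SNORD105) to 416 CPM (SNORD88A).

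Pseudouridine guides reached lower ribosome-bound levels per kb, the highest of them, SNORA23, ranking 8 of the 41. SNORA23 (chr11:9428766-9428954), a guide to large-subunit rRNA from the span of IPO7, had 1077, 1629.8 and 788 CPM in NPC, against 661, 314 and 863 CPM in ESC, and the states overlapped. SNORA74A (U19), also a guide to large-subunit rRNA, had 211, 318 and 262 CPM in NPC, against 537, 160.1 and 388 CPM in ESC, an overlap in which 2 of 3 ESC libraries were the higher ones. Near copies of SNORA74A are counted under other symbols, among them the member SNORA74D, so its counts are uncertain. SNORA3B, from the span of RPL27A, had 384, 494 and 430.4 CPM in NPC, against 234, 75.9 and 215 CPM in ESC, with NPC above. SNORA12, from the span of CWF19L1, had 422, 247 and 338 CPM in NPC, against 168, 227 and 160.0 CPM in ESC, with NPC above and RIBO_ESC replicate 2 not the lowest of its group. SNORA65, a guide to large-subunit rRNA from the span of RPL12, had 230.0, 347 and 373 CPM in NPC, against 246, 131 and 199 CPM in ESC, where the lowest NPC library fell below the highest ESC library. RIBO_ESC replicate 2 was likewise not the lowest of its group for SNORA13, SNORA14B, SNORA71B, SNORA79, SNORA79B and SNORA80A. The other 17 SNORAs besides SNORA73B ran in RIBO_NPC means from 11.7 CPM (SNORA9B) to 108 CPM (SNORA47): SNORA74D, SNORA79, SNORA53, SNORA47, SNORA80A, SNORA49, SNORA79B, SNORA80D, SNORA20, SNORA75, SNORA50A, SNORA33, SNORA14B, SNORA9B, SNORA13, SNORA46 and SNORA71B.

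**Figure D2:**
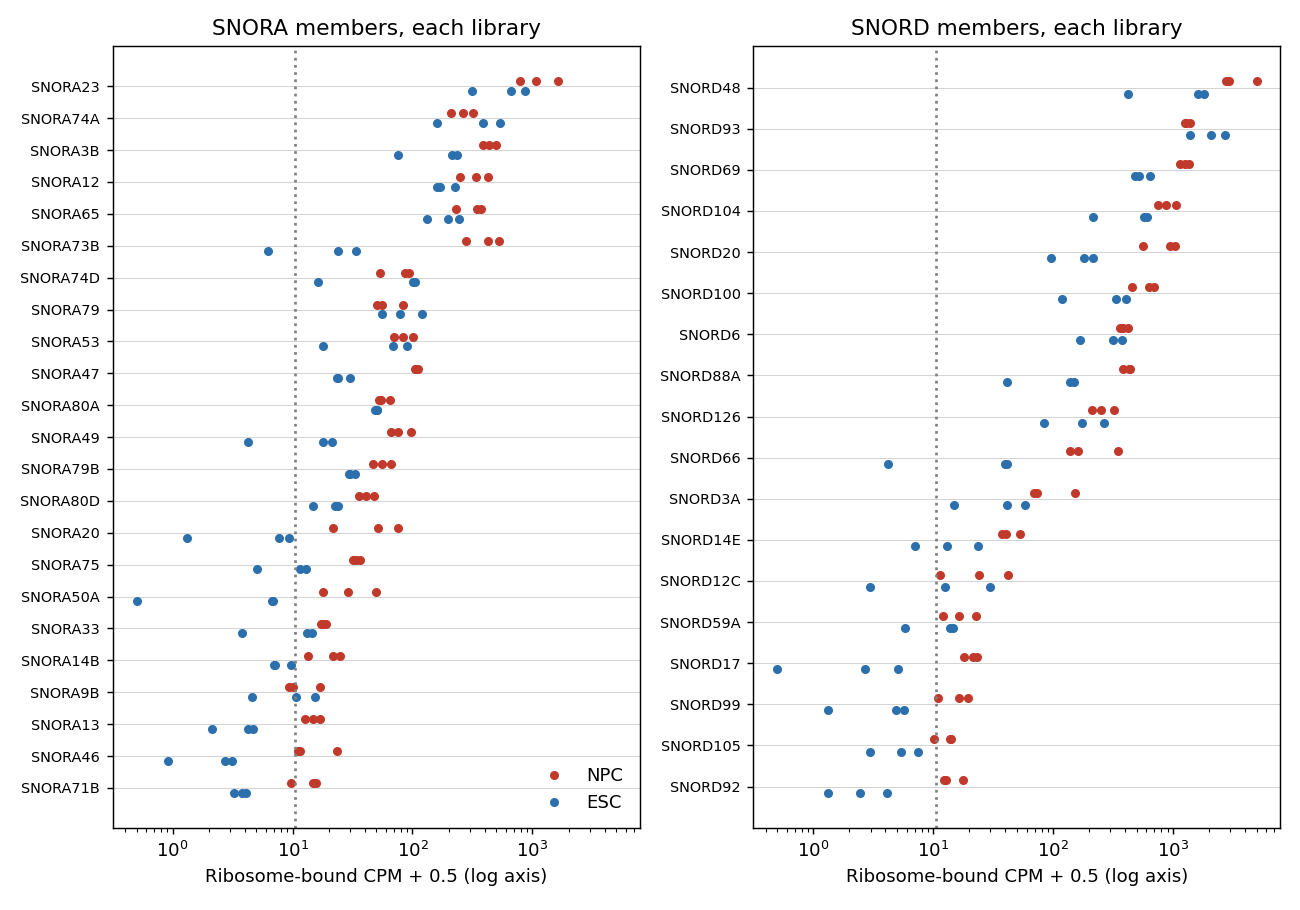
Ribosome-bound CPM plus 0.5 of each of the 41 snoRNAs on a log axis, with the 10 CPM minimum dotted, a point for each of the 3 NPC and 3 ESC libraries and the snoRNAs ordered by mean within each class. SNORD48 and SNORD93 stand highest among SNORD and SNORA23 among SNORA, and for most snoRNAs the NPC points lie to the high side of the ESC points.

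The snoRNAs of rRNA precursor cleavage were represented by 3 members. SNORA73B (U17, chr1:28508558-28508762, within the spans of SNHG3 and RCC1) showed the largest ratio between states of all 41, with 279, 530.2 and 424 CPM in NPC, against 33.2, 5.78 and 23.3 CPM in ESC. Even the lowest NPC library stood far above the highest ESC library. SNORD3A (U3, chr17:19188016-19188232) had 68.1, 150.3 and 73.2 CPM in NPC, against 57.3, 14.4 and 40.8 CPM in ESC, with NPC above. SNORD14E (a copy of U14, within the span of HSPA8) had 52.8, 37.3 and 40.0 CPM in NPC, against 23.1, 6.60 and 12.5 CPM in ESC, again with NPC above. Of the other U3 copies with RNA reads, SNORD3B-1 and SNORD3B-2 had ribosome-bound means of 0 and 0.177 CPM in NPC and 0 CPM each in ESC. SNORD3C had 0.441 CPM in NPC and 0.109 CPM in ESC, with RNA means of 0.103 CPM in NPC and 0.206 CPM in ESC. The U14 copy SNORD14A had ribosome-bound means of 0 CPM in NPC and 0.138 CPM in ESC. Its RNA means were 1.80 CPM in NPC and 2.55 CPM in ESC, a fall (log2 -0.57 ± 0.17 (SE), adjusted p = 0.0209, edgeR). SNORD118 (U8), SNORD22 (U22), SNORA73A and SNORD14B, SNORD14C and SNORD14D were listed at 0 in all 12 libraries. The sources used here do not state how reads that match several copies were counted, so a level of U3, U14 or U17 under a single symbol may not be that of the RNA as a whole. None of the 123 symbols of the imprinted SNORD clusters reached the minimum, and 23 of them had a ribosome-bound count. The nearest was SNORD113-9, with 8.55, 8.54 and 11.7 CPM in NPC and 0 in the ESC libraries.

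Read as a ratio of mean ribosome-bound CPM in NPC over ESC, with 0.5 CPM added to each mean, 38 of the 41 were higher in NPC, beside 47.9% of the 9987 genes with at least 10 CPM in a state. Without RIBO_ESC replicate 2 it was 36, beside 47.5%, since SNORA74D (0.756) and SNORA9B (0.934) were then lower. At least 2-fold higher were 24, beside 24.2% of those genes, and 20 passed that mark when RIBO_ESC replicate 2 was left out. At least 2-fold lower were 0, beside 22.7% of those genes. The NPC libraries lay wholly above the ESC libraries for 29 (35.8% of those genes), wholly below for SNORD93 alone (35.1%), and overlapped for 11. These counts include 12 snoRNAs that reached the minimum only through NPC, against 0 only through ESC, and so had to be higher in NPC. Among the 29 past the minimum in both states, 13 were at least 2-fold higher, beside 18.8% of the 7645 genes that reached it in both, and 18 did not overlap with NPC above, beside 31.9%. Their median ratio was 1.90, or 1.61 without RIBO_ESC replicate 2, where all such genes had a median of 0.923. Since these values chose the members, the shares are a description. By class, 12 of 23 SNORAs and 12 of 18 SNORDs were at least 2-fold higher, with median ratios of 2.02 and 2.49, counting those that passed only through NPC. Among members past the minimum in both states it was 5 of 15 SNORAs and 8 of 14 SNORDs, with median ratios of 1.81 and 2.18. Without RIBO_ESC replicate 2 it was 4 and 6 of these, with medians of 1.53 and 1.79.

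The largest ratio among members whose states did not overlap was that of SNORA73B, 19.3, or 14.3 without RIBO_ESC replicate 2. SNORA20, a guide to small-subunit rRNA within the span of TCP1, followed at 8.13, from 51.3, 75.5 and 21.1 CPM in NPC, against 7.17, 0.826 and 8.87 CPM in ESC. SNORD17 had a ratio of 7.59, from 17.7, 22.5 and 21.1 CPM in NPC, against 4.56, 0 and 2.22 CPM in ESC. In both, RIBO_ESC replicate 2 was at or near 0, and without it the ratios were 5.84 and 5.38. SNORD66, a guide to small-subunit rRNA within the span of EIF4G1, had a ratio of 7.56, from 139, 345 and 161 CPM in NPC, against 39.4, 3.71 and 40.8 CPM in ESC. SNORA50A, within the span of CNOT1, had a ratio of 6.85, from 17.4, 48.7 and 28.8 CPM in NPC, against 6.19, 0 and 6.38 CPM in ESC. Without RIBO_ESC replicate 2 these last ratios were 5.30 and 4.73. All 5 had their lowest ESC value in that library. SNORA20, SNORD17 and SNORA50A reached the minimum only through NPC and so had to be higher there.

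At the other end, SNORD93 had a ratio of 0.638, or 0.550 without RIBO_ESC replicate 2. SNORA80A had 51.6, 53.8 and 64.3 CPM in NPC, against 47.9, 50.4 and 50.5 CPM in ESC, a ratio of 1.14 with a narrow gap between the states. SNORA33, within the span of RPS12, had 18.3, 17.4 and 16.8 CPM in NPC, against 14.01, 3.30 and 12.8 CPM in ESC, a ratio of 1.71. SNORA12 and SNORA79B, at 1.81 and 1.83, completed the lowest 5. These 5 set the lower end for members with separate states, and only SNORD93 of them was lower in NPC. The other members with means not higher in NPC were SNORA74A (0.728) and SNORA79 (0.744), both with overlapping states. Across the 41, log2 levels in RIBO_NPC and RIBO_ESC correlated at Pearson r = 0.921 and Spearman rho = 0.910, so the order of abundance was largely shared. The points share the same libraries, and no p is given.

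**Figure D3:**
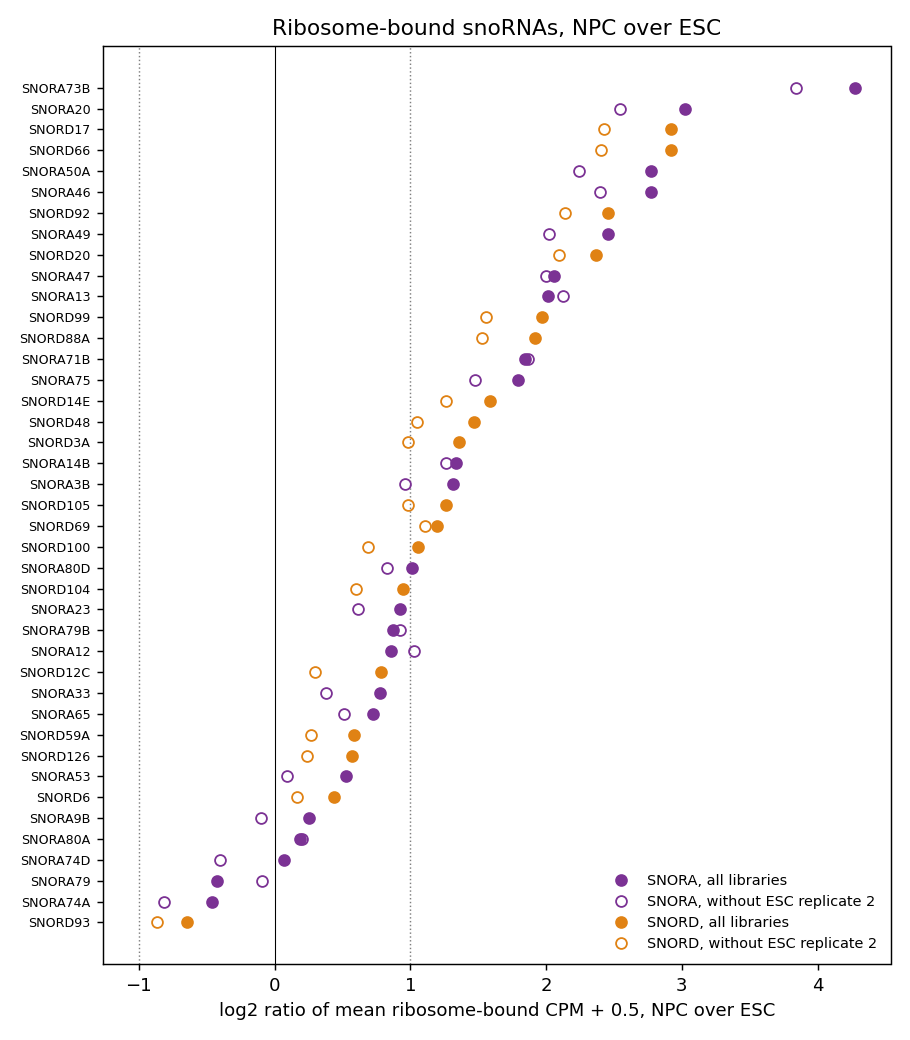
Log2 ratio of mean ribosome-bound CPM, NPC over ESC, for each of the 41 snoRNAs in order of ratio, coloured by class, with (filled) and without (open) RIBO_ESC replicate 2. Dotted lines mark 2-fold. SNORA73B lies highest at 4.27 and SNORD93 lowest at -0.65, and leaving out the library moves most points down without changing which side of 0 those with separate states lie on.

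Members just inside and just outside the minimum show where the group ends. Inside it, the higher state mean was 11.7 CPM for SNORA9B, 12.9 CPM for SNORA71B and 14.3 CPM for SNORA13, and 12.2 CPM for SNORD105, 13.9 CPM for SNORD92 and 15.1 CPM for SNORD99. Outside it, the values were 6.01 CPM for SNORA55, 5.86 CPM for SNORA66 and 5.85 CPM for SNORA5C, and 9.59 CPM for SNORD113-9, 9.23 CPM for SNORD67 and 8.42 CPM for SNORD105B.

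Mean ribosome-bound CPM exceeded mean RNA CPM for 40 of 41 members in NPC and 37 of 41 in ESC, beside 43.5% in NPC and 44.2% in ESC of the 9987 genes with at least 10 CPM in a ribosome-bound state. The members were chosen by a minimum in ribosome-bound RNA alone, so this count and the relation between the assays are a description. Across the members the log2 means in the 2 assays correlated at Pearson r = -0.014 (Spearman rho = 0.00662), over 41 points that share libraries. On the log2 scale with 0.5 CPM added, the median ratio of ribosome-bound RNA to RNA was 5.79 in NPC and 4.09 in ESC. It was 8.04 in NPC and 5.97 in ESC for SNORD, and 5.07 in NPC and 3.81 in ESC for SNORA. These levels depend on the value added, as given under the processing alternatives.

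SNORD48 marks the extreme. Its 39585 counts in RIBO_NPC and 12446 in RIBO_ESC stood against 0 counts in each of the 6 RNA libraries. SNORD93 had 14646 ribosome-bound against 6 RNA counts in NPC, and 19079 against 22 in ESC. SNORD66 had 2381 against 3 counts in NPC, a ratio of levels of 6630.2 with a counting interval from 2266 to 32173. In ESC the 3 lowest ratios were those of SNORD17, SNORA73B and SNORD3A, each over 200 nt, whereas in NPC SNORA71B, SNORA14B and SNORA33, all shorter, lay below SNORA73B. SNORD17 (237 nt) had log2 ratios of ribosome-bound RNA to RNA of -0.17 in NPC and -2.53 in ESC. SNORA73B (205 nt) had 3.11 in NPC and -1.44 in ESC, and SNORD3A (217 nt) had 1.599 in NPC and -0.36 in ESC. The other members of at least 200 nt had higher ratios. SNORA53 (250 nt), the longest of the 41, had 5.07 in NPC and 4.41 in ESC, and SNORA74A (200 nt) had 6.70 in NPC and 6.67 in ESC. SNORA71B, at 1.69 in NPC and -0.02 in ESC, was the fourth member below 0 in ESC. SNORA73B, SNORD3A and SNORD17 also had the highest RNA levels of the 41, at 229.9, 146 and 97.0 CPM per kb in RNA_NPC. Over the 41, annotated length and log2 RNA level per kb correlated at Pearson r = 0.475 and Spearman rho = 0.378, whereas length and ribosome-bound level per kb gave r = -0.342 and rho = -0.298. The classes differed in sign for ribosome-bound RNA, with r = 0.378 and rho = 0.511 in SNORA and r = -0.458 and rho = -0.563 in SNORD. For RNA per kb both were positive, with r = 0.346 in SNORA and 0.657 in SNORD. These points share their libraries, and the size range of RNA kept in a library is not stated in the sources used here.

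In total RNA, which the selection did not read, 13 members changed and 10 of those 13 fell in NPC. Of the 41, 29 had enough counts to be tested. NPC were higher for 3 (26.4% of the 18631 genes tested were called higher) and lower for 10 (26.2% were called lower), and 16 were not called (edgeR quasi-likelihood test, Benjamini-Hochberg adjustment, threshold 0.05). The lower count is close to what the share over all genes gives for a set of 29, and the higher count is below it. By class, 2 of 18 tested SNORAs were higher and 4 lower, and 1 of 11 tested SNORDs was higher and 6 lower. The median log2 change of the tested members was -0.42 (-0.27 for SNORA, -0.97 for SNORD), beside 0.03 over all genes. Leaving out RNA_NPC replicate 1 left 6 lower, and leaving out RNA_NPC replicate 3 left 1 higher. Not tested for low counts were SNORA79, SNORA47, SNORA80A, SNORA20, SNORA46, SNORD48, SNORD93, SNORD66, SNORD14E, SNORD59A, SNORD105 and SNORD92.

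The 3 that rose did so without overlap between the states. SNORA12 had 3.72, 5.47 and 5.51 CPM in NPC, against 1.43, 1.81 and 2.77 CPM in ESC, every NPC library above every ESC library, and rose by log2 1.24 ± 0.26 (SE), adjusted p = 0.00494 in the edgeR quasi-likelihood test, Benjamini-Hochberg adjustment. SNORA14B had 2.76, 2.36 and 2.63 CPM in NPC, against 1.18, 1.69 and 1.59 CPM in ESC (log2 0.72 ± 0.20 (SE), adjusted p = 0.0157 in the same edgeR test). SNORD17, a guide to large-subunit rRNA, had 21.4, 24.1 and 23.6 CPM in NPC, against 17.4, 15.3 and 13.7 CPM in ESC (log2 0.50 ± 0.14 (SE), adjusted p = 0.0190 in the edgeR test). SNORA12 kept its call without any library in turn. SNORA14B lost it in edgeR without RNA_ESC replicate 1 (adjusted p = 0.0670), RNA_NPC replicate 1 (0.0593) or RNA_NPC replicate 3 (0.0522), and SNORD17 without RNA_NPC replicate 2 (0.0809) or replicate 3 (0.0683). These 3 were higher in NPC in ribosome-bound RNA as well, with ratios of 1.81, 2.52 and 7.59. SNORA14B and SNORD17 had to be, since they reached the minimum only through NPC.

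The 5 largest falls past the threshold were those of SNORD100, SNORA13, SNORD126, SNORD6 and SNORD12C, in each of which every NPC library lay below every ESC library. SNORD100 had 1.69, 1.40 and 1.84 CPM in NPC, against 3.59, 2.50 and 4.71 CPM in ESC (log2 -1.19 ± 0.25 (SE), adjusted p = 0.00473, edgeR). SNORA13, a guide to small-subunit rRNA within the spans of EPB41L4A and EPB41L4A-AS1, had 1.04, 1.11 and 0.949 CPM in NPC, against 2.36, 2.23 and 1.69 CPM in ESC (log2 -1.09 ± 0.22 (SE), adjusted p = 0.00374, edgeR). SNORD126, within the span of CCNB1IP1, had 0.460, 0.342 and 0.581 CPM in NPC, against 0.590, 1.08 and 1.02 CPM in ESC (log2 -1.04 ± 0.34 (SE), adjusted p = 0.0335, edgeR). RNA levels of these guides were a few CPM or less. SNORD6, a guide to large-subunit rRNA, had 0.383, 0.484 and 0.367 CPM in NPC, against 0.787, 0.807 and 0.768 CPM in ESC (log2 -0.99 ± 0.28 (SE), adjusted p = 0.0169, edgeR). SNORD12C, a guide to large-subunit rRNA within the span of ZFAS1, had 2.34, 2.16 and 2.42 CPM in NPC, against 5.56, 4.11 and 3.38 CPM in ESC (log2 -0.99 ± 0.22 (SE), adjusted p = 0.00601, edgeR). The other 5 that fell were SNORD99, SNORA75, SNORA65, SNORD3A and SNORA33, with log2 changes from -0.97 to -0.63 and edgeR adjusted p from 0.00308 to 0.0298.

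Among the falls, SNORD100, SNORA13, SNORD12C, SNORA75, SNORA65 and SNORD3A kept their call when any library was left out. In edgeR, SNORD6 lost it without RNA_NPC replicate 1 (adjusted p = 0.0610) or 3 (0.0723), and SNORD126 without RNA_ESC replicate 2 (0.116), RNA_NPC replicate 1 (0.0868) or RNA_NPC replicate 2 (0.122). SNORA33 lost it without RNA_ESC replicate 1 (0.0730) or RNA_NPC replicate 1, 2 or 3 (0.0551, 0.0706 and 0.0981). SNORD99 lost it without RNA_ESC replicate 2 or 3 (0.0654 and 0.107) or RNA_NPC replicate 1, 2 or 3 (0.0757, 0.0632 and 0.111). With the replicate number as a block, SNORD99 and SNORD126 were no longer called (edgeR adjusted p = 0.0698 and 0.0527), while SNORA74D and SNORD104 fell (0.0433 and 0.0434). Without RNA_ESC replicate 3, SNORA73B, SNORA74D, SNORA74A and SNORD104 were called lower as well (edgeR adjusted p = 6.62e-08, 5.72e-07, 0.000603 and 0.000559). By DESeq2, SNORD99 was not called (adjusted p = 0.0636), while SNORA73B (0.0306) and SNORA74D (0.0190) were called lower. In edgeR without a filter, SNORD99 was not called (adjusted p = 0.0614), while SNORD20 (0.0469), SNORA74D (0.00742) and SNORD104 (0.0236) were called lower.

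**Figure D4:**
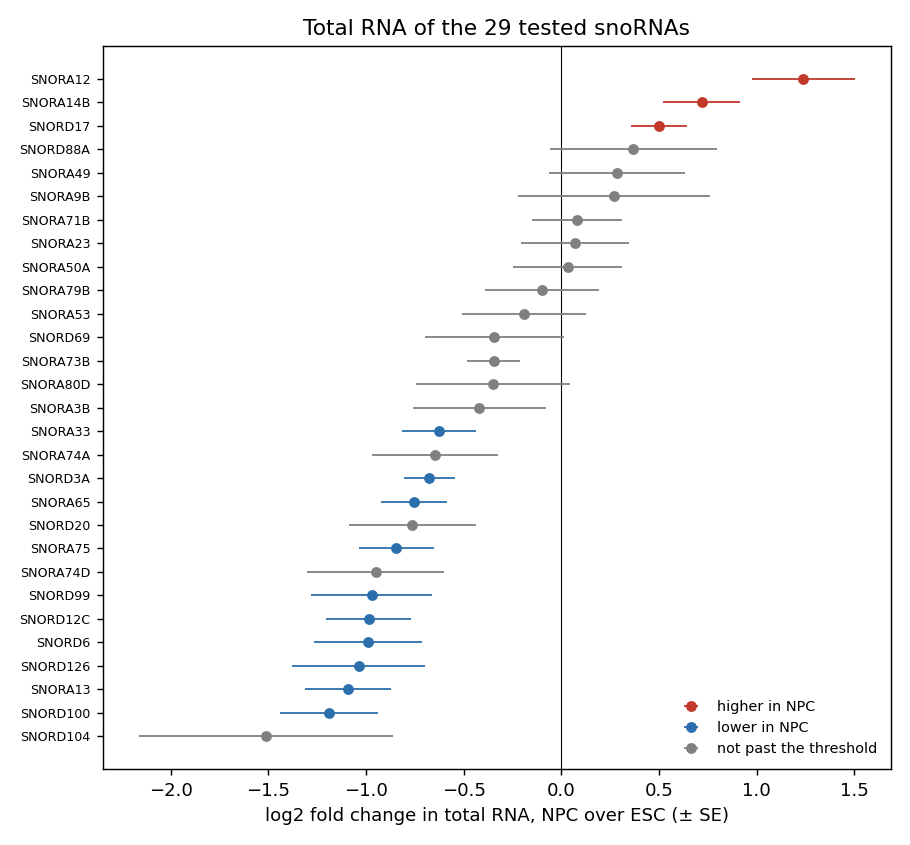
Log2 change of NPC over ESC in total RNA for the 29 tested snoRNAs, with standard errors from edgeR and the calls marked by colour. SNORA12, SNORA14B and SNORD17 lie above 0 among the called ones, and 10 called snoRNAs lie between -1.19 and -0.63. SNORD104 lies lowest at -1.51 with a wide error and was not called.

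In RNA the cleavage snoRNAs gave other values than in ribosome-bound RNA. SNORD3A fell in RNA, with 33.4, 32.3 and 29.6 CPM in NPC, against 47.7, 53.7 and 43.5 CPM in ESC (log2 -0.68 ± 0.13 (SE), adjusted p = 0.00308, edgeR), and the further U3 copies SNORD3B-1 (log2 -0.90, adjusted p = 0.000835, edgeR) and SNORD3B-2 (log2 -0.89, adjusted p = 0.00133, edgeR) fell too. SNORA73B had 46.4, 48.8 and 46.2 CPM in NPC, against 62.1, 60.7 and 48.3 CPM in ESC and was not called (log2 -0.35 ± 0.14 (SE), adjusted p = 0.0613, edgeR). DESeq2 called it lower (adjusted p = 0.0306). Its RNA levels overlapped between states, while its ribosome-bound levels differed 19.3-fold. In SNORD3A the RNA was lower in NPC and the ribosome-bound level higher, without overlap in either assay. This held for 6 of the 29 members tested in RNA, beside 4.6% of the 9761 genes that had at least 10 CPM in a ribosome-bound state and were tested in RNA. The ribosome-bound values chose the members, so nothing is read from that count.

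Among genes for the proteins of snoRNPs, the RNA-protein particles that snoRNAs form, more fell than rose in NPC. In the list of 29 core, assembly and nucleolar protein genes, 13 fell and 0 rose in RNA (edgeR quasi-likelihood test, Benjamini-Hochberg adjustment, beside 26.2% and 26.4% of all genes), and 0 were higher at an unadjusted p under 0.05 or by DESeq2. Without RNA_ESC replicate 3, 22 fell and 2 rose (XPO1 and LARP7). Of the C/D core, NOP56 averaged 229 ± 4.76 CPM in RNA_NPC and 319 ± 9.81 CPM in RNA_ESC (SD, n = 3 each) and fell (log2 -0.55 ± 0.09 (SE), adjusted p = 0.00105, edgeR). NOP58 fell as well (log2 -0.70 ± 0.14 (SE), adjusted p = 0.00407, edgeR), while FBL, the methyltransferase (log2 -0.21), and SNU13, which binds the kink-turn (log2 -0.25), were not called. Of the H/ACA core, DKC1, the pseudouridine synthase, averaged 78.9 ± 0.536 CPM in RNA_NPC and 161 ± 26.7 CPM in RNA_ESC (SD, n = 3 each) and fell (log2 -1.09 ± 0.12 (SE), adjusted p = 0.000156, edgeR). GAR1 fell (log2 -0.97 ± 0.14 (SE), adjusted p = 0.000748, edgeR), and NHP2 (log2 -0.62, adjusted p = 0.0562) and NOP10 (log2 -0.45, adjusted p = 0.296) were not called in edgeR. With the replicate block NHP2 fell too (edgeR adjusted p = 0.0260), and without RNA_ESC replicate 3 FBL, SNU13, NHP2 and NOP10 all fell (edgeR adjusted p = 8.23e-05, 2.01e-06, 1.19e-16 and 1.44e-11).

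In ribosome-bound RNA the same list had 13 genes lower and 2 higher in NPC (edgeR, beside 30.3% lower and 31.6% higher of 12250 genes tested). The 2 that rose were TCOF1, a nucleolar protein needed for rRNA synthesis (log2 1.21 ± 0.30 (SE), adjusted p = 0.00371, edgeR), and LARP7, which has a known part in modification of a spliceosomal RNA (log2 1.86 ± 0.25 (SE), adjusted p = 6.41e-05, edgeR). FBL fell (log2 -0.74 ± 0.21 (SE), adjusted p = 0.00862), with adjusted p = 0.0563 without RIBO_NPC replicate 1, and so did NOP58 (log2 -1.36 ± 0.34 (SE), adjusted p = 0.00401) and SNU13 (log2 -0.99 ± 0.24 (SE), adjusted p = 0.00364), all in edgeR. DKC1 (log2 -0.81 ± 0.18 (SE), adjusted p = 0.00246), NOP10 (log2 -1.44 ± 0.30 (SE), adjusted p = 0.00152) and GAR1 (log2 -0.96 ± 0.26 (SE), adjusted p = 0.00687) fell in the same edgeR test. NOP56 was not called (log2 0.37, adjusted p = 0.101, edgeR) but was called higher without RIBO_ESC replicate 2 (adjusted p = 0.0365), and NHP2 was not called (log2 0.00413 ± 0.21, SE). Of the 8 core protein genes, the C/D core had 3 called lower and the H/ACA core 3.

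Small Cajal body RNAs (SCARNA symbols), relatives of snoRNAs that guide modification of spliceosomal RNAs, lay outside the selection and could be tested in both assays. Of 24 symbols, 17 had a ribosome-bound count and 9 reached 10 CPM in a state. In NPC ribosome-bound RNA, 8 of the 10 that could be tested rose and 0 fell, beside 31.6% and 30.3% of all genes. In RNA 5 of 7 rose and 0 fell (edgeR quasi-likelihood test, Benjamini-Hochberg adjustment). DESeq2 and an unadjusted p under 0.05 in edgeR gave 0 lower in both assays too, and the counts were 8 of 10 without RIBO_ESC replicate 2 and 5 of 8 without RNA_ESC replicate 3. SCARNA8 had the highest level, with 613, 376 and 442 CPM in RIBO_NPC and 178, 237 and 186 CPM in RIBO_ESC. Its states did not overlap, and it rose (log2 1.29 ± 0.26 (SE), adjusted p = 0.00104, edgeR). SCARNA11 had 240.1, 272 and 199.9 CPM in RIBO_NPC and 42.4, 28.9 and 51.9 CPM in RIBO_ESC, and rose (log2 2.56 ± 0.24 (SE), adjusted p = 4.09e-06, edgeR). RNA levels of both were under 1 CPM in every library and too low to test.

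More of the genes that enclose the snoRNAs fell than rose in NPC. Of 38 such genes, 21 fell and 1 (CCNB1IP1) rose in RNA, beside 26.2% and 26.4% of all genes, and of 34 tested in ribosome-bound RNA 18 fell and 6 rose in NPC, beside 30.3% and 31.6% (edgeR quasi-likelihood test, Benjamini-Hochberg adjustment). Without RNA_ESC replicate 3 the RNA counts were 26 lower and 4 higher. With the replicate block, 20 were lower and 1 higher in RNA, and 13 lower and 5 higher of 34 in ribosome-bound RNA, nearer the share over all genes. Without RIBO_ESC replicate 2, 19 of 35 were lower and 8 higher in ribosome-bound RNA. Over 44 pairs of a snoRNA and an enclosing gene, the ratio of mean ribosome-bound CPM in NPC over ESC was larger for the snoRNA in 41, and in 29 of the 31 pairs whose snoRNA passed the minimum in both states. The median ratio was 2.35 for the snoRNAs and 0.680 for the enclosing genes, and in 24 pairs the snoRNA mean was higher and the gene mean lower in NPC. The snoRNA values chose the members, so these pairs are a description.

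The pairs differ in kind. SNORA73B had a ratio of 19.3, while RCC1, a regulator of the GTPase Ran whose span holds it, averaged 22.4 CPM in NPC and 106 CPM in ESC and fell (log2 -2.20 ± 0.27 (SE), adjusted p = 2.82e-05, edgeR). SNHG3, the noncoding gene at the same place, averaged 1.86 CPM in NPC and 7.59 CPM in ESC and fell (log2 -1.88 ± 0.53 (SE), adjusted p = 0.00835, edgeR). SNORD66 and the gene around it, EIF4G1, a translation initiation factor, were both higher in NPC, at ratios of 7.56 and 2.45, and EIF4G1 rose (log2 1.35 ± 0.35 (SE), adjusted p = 0.00515, edgeR) although its RNA fell (log2 -0.82 ± 0.11 (SE), adjusted p = 0.000378, edgeR). NCL, the nucleolar protein nucleolin, was not called in ribosome-bound RNA (log2 0.31 ± 0.29 (SE), adjusted p = 0.362, edgeR), while SNORD20 and SNORA75 within it had ratios of 5.16 and 3.46. Of these snoRNAs, SNORA75 reached the minimum only through NPC. SNHG32, around SNORD48, averaged 7.63 CPM in NPC and 11.3 CPM in ESC, and was not called (log2 -0.51 ± 0.31 (SE), adjusted p = 0.167, edgeR), while SNORD48 had a ratio of 2.77. SNHG26, around SNORD93, averaged 0.583 CPM in NPC and 2.47 CPM in ESC, a ratio of 0.365, so both it and its snoRNA had lower means in NPC. The NPC mean of SNHG26 was below the counting limit of a single library given above, and its ribosome-bound counts were too low to test. Its RNA fell (log2 -2.36 ± 0.19 (SE), adjusted p = 2.70e-05, edgeR).

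**Figure D5:**
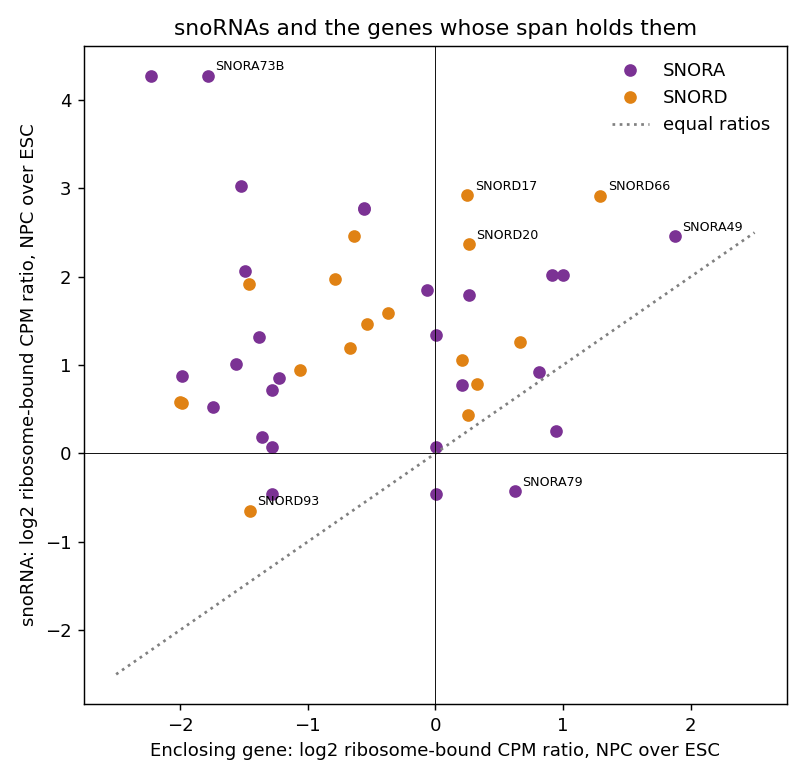
Log2 ratio of mean ribosome-bound CPM, NPC over ESC, of each snoRNA (vertical axis) against that of the gene that encloses it (horizontal axis) for 44 pairs, with colour for SNORA and SNORD and a diagonal of equal ratios. Of the 44 points, 41 lie above the diagonal, and SNORA73B, at ratios of 19.3 against 0.214 (RCC1) and 0.291 (SNHG3), lies farthest from it.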

How the data were processed

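The data are the gene counts deposited by the authors, whole numbers without normalization, for 12 libraries. Per the submitters' processing notes, the tools were featureCounts 1.6.4, STAR 2.7.1a, Bowtie 1.2 and cutadapt 1.18, and the builds named are GRCh38 and hg38. No role or order is given. Strand use, the counted feature, the annotation release and the handling of multiply matching reads are not stated in the sources used here, so values of near copies (SNORA74A and SNORA74D, SNORA79 and SNORA79B, SNORA80A and SNORA80D, SNORA3B, the U3 and U14 copies) and of snoRNAs and their enclosing genes are uncertain. No column was left unused.

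The members and the gene lists were chosen with earlier results of these data known. CPM was the count per 1000000 counts of its column. Folds of ribosome-bound means had 0.5 CPM added and got no test. Differences in RNA, and those of genes outside the selection in ribosome-bound RNA, were tested with edgeR 4.0.16 (quasi-likelihood test, TMM scaling, low counts removed by filterByExpr, Benjamini-Hochberg adjustment over all genes tested, threshold 0.05) in R 4.3.3, on the 6 libraries of an assay. The standard error of a log2 change was its size over the square root of F. The scripts were tested on simulated data, where 53.1% of 2-fold changes were recovered in RNA and 37.9% in ribosome-bound RNA. Of 4-fold changes, 97.9% and 96.8% were recovered. False calls were 7.59% of calls in RNA and 5.19% in ribosome-bound RNA. A gene not called may thus still have changed by up to about 2-fold. Ratios of counts have exact 95% binomial intervals. Positions, lengths and start sequences came from RefSeq tables (GRCh38.p14), where all 41 symbols matched. DESeq2 1.42.0, other scalings, filters, minimums and pseudocounts, a replicate block and the omission of each library were alternatives. In RNA, deviations of same-numbered NPC and ESC libraries from their group means correlated at 0.185, 0.143 and 0.382 across genes. Unlike-numbered libraries did so too for NPC 1 with ESC 2 (0.217) and NPC 2 with ESC 1 (0.122). The other unlike-numbered pairs, each with a replicate 3, ran from -0.343 to -0.159. The numbers are thus not shown to pair samples. The block is an alternative only. Blocked values are given for changed calls of members and core protein genes, and as counts for the protein list and the enclosing genes. Named snoRNAs were the 6 of each class with the highest ribosome-bound mean, the 5 highest and 5 lowest ratios with separate states, the 5 largest changes each way in RNA, and the members involved in precursor cleavage. Any other snoRNA named with a value was named after their values were seen. Other values were computed in Python 3.11.15 with numpy 2.4.6, pandas 2.3.3 and scipy 1.17.1, and drawn with matplotlib 3.10.9.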

Additional observations from a re-analysis of the deposited data

Results flagged for a closer look

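For 6 snoRNAs tested in RNA, every NPC library lay above every ESC library in ribosome-bound RNA while every NPC library lay below every ESC library in RNA. The same held for 4.6% of the 9761 genes that had at least 10 CPM in a ribosome-bound state and were tested in RNA, and since the members were chosen on ribosome-bound values the count of 6 is a description. The difference between the assays was not tested, because the ribosome-bound values chose the members. SNORA75, SNORA13 and SNORD99 reached the minimum only through NPC and so had to be higher there in ribosome-bound RNA. SNORA75 had a ribosome-bound log2 ratio of 1.79, from mean levels of 33.6 CPM in NPC and 9.34 CPM in ESC, beside an RNA log2 change of -0.84. SNORA33 had a ribosome-bound log2 ratio of 0.78, from mean levels of 17.5 CPM in NPC and 10.02 CPM in ESC, beside an RNA log2 change of -0.63. SNORA13 had a ribosome-bound log2 ratio of 2.02, from mean levels of 14.3 CPM in NPC and 3.17 CPM in ESC, beside an RNA log2 change of -1.09. SNORD100 had a ribosome-bound log2 ratio of 1.06, from mean levels of 597 CPM in NPC and 286 CPM in ESC, beside an RNA log2 change of -1.19. SNORD3A had a ribosome-bound log2 ratio of 1.36, from mean levels of 97.2 CPM in NPC and 37.5 CPM in ESC, beside an RNA log2 change of -0.68. SNORD99 had a ribosome-bound log2 ratio of 1.97, from mean levels of 15.1 CPM in NPC and 3.49 CPM in ESC, beside an RNA log2 change of -0.97. RIBO_ESC replicate 2 was the lowest ESC library for 5 of these 6, SNORA13 being the exception, and the calls of SNORA33 and SNORD99 in RNA were lost without single libraries.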

How the results depend on the processing

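Calls of members in RNA numbered 6 to 14 lower and 1 to 3 higher when single libraries were left out, 10 lower and 3 higher with the replicate block, 7 to 13 lower under other scalings, filters and DESeq2. The lowest counts came without RNA_NPC replicate 1 (6 lower) and without RNA_NPC replicate 3 (1 higher). For the 29 protein genes in RNA, single omissions gave 11 to 22 lower and 0 to 2 higher, and the replicate block 15 lower and 0 higher. In ribosome-bound RNA, where same-numbered libraries did not deviate together (r = -0.179, -0.255 and -0.00762 across genes), the block gave 12 lower and 2 higher. Members at least 2-fold higher in RIBO_NPC numbered 37 with a 5 CPM minimum and 13 among those past 10 CPM in both states, an alternative chosen after seeing the data. TMM and DESeq2 scaling gave 24. The minimum kept 28 SNORA and 27 SNORD at 5 CPM and 17 and 14 at 20 CPM. Without SNORA23, the SNORA member highest in ribosome-bound RNA, the SNORA share was 0.253% in RIBO_NPC and 0.00784% in RNA_NPC, and without SNORD48 the SNORD share was 0.642% in RIBO_NPC. Without the members highest in RNA, an alternative chosen after seeing the data, the RNA shares were 0.00335% in NPC and 0.00369% in ESC for SNORA (without SNORA73B) and 0.00320% in NPC and 0.00315% in ESC for SNORD (without SNORD3A), the NPC mean then not being the lower one. Over all symbols, the RNA shares were 0.0111% in NPC and 0.0121% in ESC for SNORA and 0.0141% in NPC and 0.0202% in ESC for SNORD, so SNORD was the larger class there, opposite to the members. The median log2 ratio of ribosome-bound RNA to RNA was 6.79 in NPC with 0.1 CPM added and 4.43 with 2 CPM added, and 3.01 in ESC with 2 CPM added. None of these alternatives turned the direction of a called result. The causes were not tested, except that other minimums and symbols change which snoRNAs enter. The shallow ribosome-bound libraries limit members near the minimum, and members with few RNA counts are limited in RNA.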
